A study of Mus musculus with 6 samples.

Results

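The thick ascending limb of the loop of Henle was described here through 9 genes that mark it or carry out its work: Slc12a1, Umod, Egf, Cldn10, Cldn16, Cldn19, Kcnj1, Ptger3 and Bsnd. They were chosen by name, as the rows of the deposited gene table with these symbols, and are 9 of the 17684 genes in that table. All 9 had at least 10 counts in at least 3 libraries, the filter that 13679 genes passed, so every one of them was tested. In the transcript table they have 25 of 54723 transcripts, of which 21 passed the same filter.

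Kidney RNA of db/db mice, a leptin receptor mutant model of obesity and type 2 diabetes, was sequenced after long treatment with atorvastatin, an inhibitor of HMG-CoA reductase. The study's methods do not say which part of the kidney was used for RNA. The Db group (3 libraries) was given saline and the Db + Ato10 group (3 libraries) received atorvastatin at 10 mg/kg per day for 40 weeks. All 6 mice were 50 weeks old, carried the db/db genotype and had the strain label C57 BLKS/L. The mice of both groups were those still alive at the end of dosing, since the study gives falling numbers of mice in each. No lean or untreated non-diabetic kidney was sequenced, so each value compares 1 diabetic group with another.

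The thick ascending limb reabsorbs sodium chloride without water, which dilutes the urine and builds the medullary gradient. The cotransporter NKCC2, encoded by Slc12a1, brings sodium, potassium and chloride in from the lumen, the channel ROMK returns potassium to the lumen, and barttin is a subunit needed for chloride to leave toward the blood. The voltage this creates drives cations between the cells through claudin pores. The limb also secretes uromodulin, the most abundant protein of normal urine, and epidermal growth factor is made in its cells and in those of the distal convoluted tubule.

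Library totals ran from 11381681 to 14667894 expected counts, and 3 counts in a library correspond to 0.198 to 0.260 CPM (counts scaled to a common library size by TMM), so all 9 genes were far above the counting floor. Db replicate 1 stood apart from the other libraries in 1 respect: 4 Y-linked genes, of which Eif2s3y was the most abundant by TPM, together had 2 counts in it and 1419 to 2116 in each of the other libraries. The study's methods give male mice only and the labels give no sex, so the counts are also given without this library below. The labels name the treatment in 2 fields, of which 1 gives atorvastatin for all 6 libraries, and the field that separates saline from atorvastatin was used for the groups. In bulk tissue, fewer cells of a type and less RNA per cell cannot be told apart, and this holds for every value that follows.

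Among the genes of salt entry and exit, Slc12a1 (gene ID 20495, chr2:125152510-125230002 in GRCm38.p6) measured 2320.0, 2037 and 2453 CPM in Db replicates 1, 2 and 3 and 868, 592 and 989.7 CPM in Db + Ato10 replicates 1, 2 and 3. Every treated library lay below every saline library, and Db + Ato10 replicate 2 was the lowest of the 6. The mean CPM was 2269.8 ± 213 (SD, n = 3) in Db and 817 ± 204 (SD, n = 3) in Db + Ato10 (log2 fold change −1.48 ± 0.29 SE, adjusted p = 0.239 by edgeR). Kcnj1 (chr9:32372418-32399197), which encodes ROMK, measured 559, 505 and 515 CPM in Db replicates 1, 2 and 3 and 230.4, 172 and 277 CPM in Db + Ato10 replicates 1, 2 and 3. Its saline libraries lay close together and the treated ones were all lower, again with Db + Ato10 replicate 2 at the bottom. The mean CPM was 526 ± 28.7 (SD, n = 3) in Db and 227 ± 52.4 (SD, n = 3) in Db + Ato10 (log2 fold change −1.22 ± 0.22 SE, adjusted p = 0.239 by edgeR). Bsnd (chr4:106483456-106492243), which encodes barttin, measured 71.2, 83.2 and 94.2 CPM in Db replicates 1, 2 and 3 and 46.8, 32.7 and 47.4 CPM in Db + Ato10 replicates 1, 2 and 3. The groups did not overlap, and the treated libraries 1 and 3 were nearly equal. The mean CPM was 82.9 ± 11.5 (SD, n = 3) in Db and 42.3 ± 8.34 (SD, n = 3) in Db + Ato10 (log2 fold change −0.97 ± 0.20 SE, adjusted p = 0.239 by edgeR).

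The claudins line the tight junction and set which ions pass between the cells. Cldn10 (chr14:118787871-118874525) has a form that makes a sodium pore in this segment, and its values here sum all its forms. The gene measured 185, 191 and 247 CPM in Db replicates 1, 2 and 3. In Db + Ato10 replicates 1, 2 and 3 it measured 105, 86.2 and 125 CPM. All treated libraries were below all saline libraries. The mean CPM was 208 ± 33.8 (SD, n = 3) in Db and 105 ± 19.5 (SD, n = 3) in Db + Ato10 (log2 fold change −0.98 ± 0.20 SE, adjusted p = 0.239 by edgeR). Cldn16 (chr16:26463135-26482765), needed for calcium and magnesium reabsorption, measured 12.8, 13.3 and 14.3 CPM in Db replicates 1, 2 and 3 and 16.8, 12.8 and 7.96 CPM in Db + Ato10 replicates 1, 2 and 3. The treated libraries spread to both sides of the saline ones, with the highest and the lowest value of the 6 both in treated kidneys (log2 fold change −0.10 ± 0.29 SE, adjusted p = 0.855 by edgeR). Cldn19 (chr4:119255441-119262438), the partner of claudin-16 in the same junction, measured 31.0, 54.1 and 78.1 CPM in Db replicates 1, 2 and 3 and 51.1, 50.1 and 44.7 CPM in Db + Ato10 replicates 1, 2 and 3. Here the saline libraries held both extremes and the treated ones lay between them (log2 fold change −0.16 ± 0.32 SE, adjusted p = 0.795 by edgeR). The direction of these 2 genes was not stable: without Db + Ato10 replicate 3 the log2 fold change of Cldn16 was 0.14, and without Db replicate 3 that of Cldn19 was 0.19.

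Of the secreted products, Umod (chr7:119462708-119479262), which encodes uromodulin, measured 3264, 4311 and 3577 CPM in Db replicates 1, 2 and 3 and 3104, 1234 and 3746 CPM in Db + Ato10 replicates 1, 2 and 3. The groups overlapped: Db + Ato10 replicate 3 was above Db replicates 1 and 3, and the lower treated mean came mostly from Db + Ato10 replicate 2. For Umod the mean CPM was 3717 ± 537 (SD, n = 3) in Db and 2694 ± 1305 (SD, n = 3) in Db + Ato10 (log2 fold change −0.46 ± 0.46 SE, adjusted p = 0.591 by edgeR). Egf (chr3:129677574-129755322), the precursor of epidermal growth factor, measured 2265, 2326 and 1936 CPM in Db replicates 1, 2 and 3 and 379, 155 and 1028 CPM in Db + Ato10 replicates 1, 2 and 3. The saline libraries were alike and the treated libraries were lower and far apart from each other, with replicate 3 the highest of them. For Egf the mean CPM was 2175 ± 210.1 (SD, n = 3) in Db and 521 ± 453 (SD, n = 3) in Db + Ato10 (log2 fold change −2.06 ± 0.66 SE, adjusted p = 0.239 by edgeR). Ptger3 (chr3:157566821-157644758) encodes no secreted product but the EP3 receptor for prostaglandin E2. It measured 93.1, 80.4 and 146 CPM in Db replicates 1, 2 and 3. In Db + Ato10 replicates 1, 2 and 3 it measured 58.0, 42.8 and 55.4 CPM. The groups did not overlap, and Db replicate 3 was well above the other saline libraries. For Ptger3 the mean CPM was 106 ± 34.6 (SD, n = 3) in Db and 52.0 ± 8.10 (SD, n = 3) in Db + Ato10 (log2 fold change −1.03 ± 0.26 SE, adjusted p = 0.239 by edgeR).

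**Figure D1:**
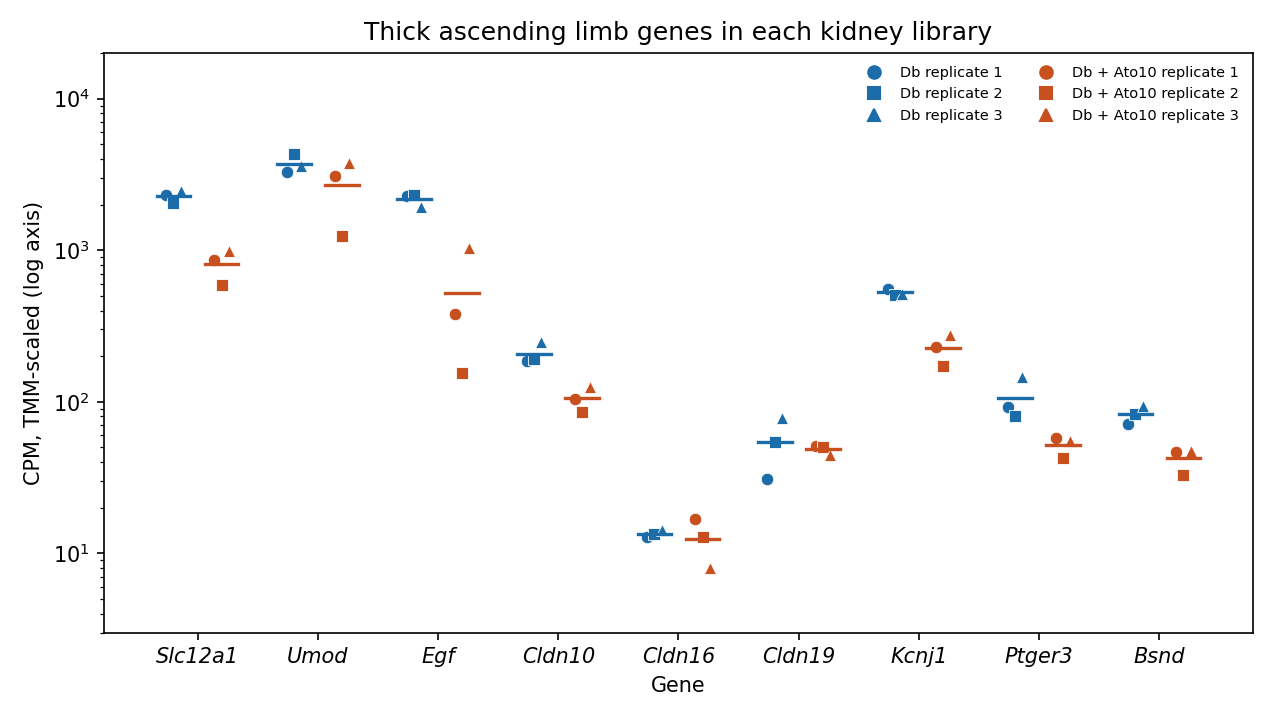
Level of each of the 9 genes in each of the 6 libraries, in TMM-scaled CPM on a log axis, with 1 point per library and a bar at the group mean. The groups do not overlap for Slc12a1, Egf, Cldn10, Kcnj1, Ptger3 and Bsnd, and overlap for Umod, Cldn16 and Cldn19.

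A gene was called when its level differed more than 1.5-fold between groups and its p, adjusted by Benjamini-Hochberg over all tested genes, was under 0.05. None of the 9 genes passed both criteria (0 by edgeR, against 0% of all tested genes). No gene of the whole table did, and the smallest adjusted p of any gene was 0.239. At an unadjusted p under 0.05, 6 of the 9 were lower in Db + Ato10 and 0 higher, with p from 0.00103 to 0.0185 by edgeR, whereas 5.71% of all tested genes were lower at that level. The same 6 genes, Slc12a1, Egf, Cldn10, Kcnj1, Ptger3 and Bsnd, had treated libraries all below the saline ones, as did 11.3% of all tested genes. The median log2 fold change of the 9 was −0.98, beside −0.01 over all tested genes. Summed over the 9 genes, the libraries held 8801, 9601 and 9059.5 CPM in Db replicates 1, 2 and 3 and 4859, 2378 and 6321 CPM in Db + Ato10 replicates 1, 2 and 3.

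DESeq2 called those 6 genes lower, beside 1.29% of all tested genes, with adjusted p from 5.55e-06 for Slc12a1 to 0.0193 for Egf. On simulated counts the adjusted calls held more unchanged genes than the nominal rate, more so by DESeq2 than by edgeR. The share of unchanged genes among the calls in these data was not tested. The DESeq2 calls, and the edgeR calls given below, are to be read with caution for that reason. Those of DESeq2 also moved with single libraries. Without Db replicate 1, the library with few Y-linked counts, DESeq2 called 4 of the 9 (Slc12a1, Cldn10, Kcnj1 and Bsnd) and 0.258% of tested genes lower, and the adjusted p of Egf became 0.183. Without Db replicate 3 it called 2 (Slc12a1 and Kcnj1), beside 0.346% of tested genes lower. By edgeR without Db replicate 1 the same 6 genes were lower at an unadjusted p under 0.05, beside 2.52% of tested genes, and 0 passed both criteria, the log2 fold change of Slc12a1 being −1.45. Without Db + Ato10 replicate 3, the treated library with the highest summed level, edgeR called 5 of the 9 lower (Slc12a1, Egf, Cldn10, Kcnj1 and Bsnd), beside 2.23% of tested genes. In that fit the log2 fold change of Egf was −3.02 (adjusted p = 0.0289 by edgeR) and that of Slc12a1 was −1.63 (adjusted p = 0.0361 by edgeR). The other 5 edgeR fits with 1 library left out called 0 of the 9.

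On a scale per length (TPM, transcript counts scaled to length and then to 1 total per library, as deposited), levels can be compared between genes. Umod was the most abundant of the 9 in saline kidneys, with TPM means of 2556 ± 373 (SD, n = 3) in Db and 1725 ± 806 (SD, n = 3) in Db + Ato10. Egf came next in saline kidneys, with TPM means of 928 ± 92.8 (SD, n = 3) in Db and 220.3 ± 185 (SD, n = 3) in Db + Ato10. Slc12a1 stood beside it, with TPM means of 845 ± 77.5 (SD, n = 3) in Db and 285 ± 63.9 (SD, n = 3) in Db + Ato10. The saline levels of Egf and Slc12a1 overlapped between libraries, while Umod was above both in each. Cldn10 followed, with TPM means of 394 ± 65.7 (SD, n = 3) in Db and 187 ± 35.7 (SD, n = 3) in Db + Ato10, and then Kcnj1, with TPM means of 302 ± 16.1 (SD, n = 3) in Db and 122 ± 25.8 (SD, n = 3) in Db + Ato10. Ptger3, Cldn19 and Bsnd were lower, with saline means of 89.5, 60.1 and 54.1 TPM, and the saline libraries of neighbours in that order overlapped. Cldn16 was the least abundant, with TPM means of 22.2 ± 1.23 (SD, n = 3) in Db and 19.3 ± 6.31 (SD, n = 3) in Db + Ato10.

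Ratios within a library remove the scaling between libraries and show whether the genes moved by unequal amounts. The log2 ratio of counts of each of the other 8 genes to Slc12a1 was compared by a two-sided exact permutation test over libraries, whose smallest possible p is 0.1 with 3 against 3, so none of the 8 could pass 0.05. The ratio of Cldn19 to Slc12a1 was −5.48 ± 0.66 (SD, n = 3) in Db and −4.04 ± 0.46 (SD, n = 3) in Db + Ato10. That of Cldn16 was −7.39 ± 0.13 (SD, n = 3) in Db and −6.06 ± 0.78 (SD, n = 3) in Db + Ato10. These ratios were higher in every treated library than in any saline one (exact p = 0.1 and adjusted p = 0.16 over 8 ratios for each). The ratios of Cldn10, Bsnd and Kcnj1 were also higher in every treated library, by 0.52, 0.52 and 0.26 on the log2 scale (exact p = 0.1 and adjusted p = 0.16 for each). Of all other tested genes, 88.2% also had a ratio to Slc12a1 that was higher in every treated library. Slc12a1, the denominator, was lower in every treated library than in any saline one. The median log2 fold change over all tested genes was −0.01. Higher ratios of Cldn16 and Cldn19 are therefore no separate result about these genes. For Umod the difference was 0.90 and for Ptger3 0.51, with overlapping groups (exact p = 0.2 and adjusted p = 0.229 for each). Egf was the only one of the 8 with a lower mean ratio in treated kidneys, a difference of −0.96, and its groups overlapped (exact p = 0.3, adjusted p = 0.3).

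Slc12a1 has 2 deposited transcripts, which differ in a cassette exon: as background, the gene carries alternative versions of 1 exon that change how the cotransporter binds its ions and where along the limb it is used. In the GENCODE M21 annotation (GRCm38) both transcripts have 27 exons and differ at exon 5, a coding exon of 96 bases on the plus strand, at chr2:125166673-125166768 in NM_001079690.1 and at chr2:125166123-125166218 in NM_183354.2. The versions have the same base at 56 positions and different bases at 40 (58.3% identity). They are shown 5′ to 3′ because reads over this exon are what tells the forms apart, with the differing bases in capitals.
NM_001079690.1: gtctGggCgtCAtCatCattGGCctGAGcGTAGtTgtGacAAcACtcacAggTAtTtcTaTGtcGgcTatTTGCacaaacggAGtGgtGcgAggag
NM_183354.2: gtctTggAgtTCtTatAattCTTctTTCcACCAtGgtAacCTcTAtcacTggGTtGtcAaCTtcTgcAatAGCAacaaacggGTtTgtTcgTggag

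The form NM_001079690.1 measured 1744, 1452 and 1763 CPM in Db replicates 1, 2 and 3 and 725, 259 and 696 CPM in Db + Ato10 replicates 1, 2 and 3 (log2 fold change −1.56 ± 0.42 SE, adjusted p = 0.509 by edgeR). The form NM_183354.2 measured 570.5, 574 and 681 CPM in Db replicates 1, 2 and 3 and 179, 343 and 294 CPM in Db + Ato10 replicates 1, 2 and 3 (log2 fold change −1.16 ± 0.27 SE, adjusted p = 0.426 by edgeR). Both were lower in every treated library than in any saline one. Of the 30175 tested transcripts, 0% passed both criteria by edgeR, so 0 transcripts of Slc12a1 and Cldn10 did, and 2.81% were lower at an unadjusted p under 0.05, both forms of Slc12a1 and 1 transcript of Cldn10, NM_023878.3, among them. DESeq2 called both forms lower, beside 1.05% of tested transcripts, and 0 transcripts of Cldn10. The share of NM_183354.2 in the counts of the gene was 24.7, 28.3 and 27.9% in Db replicates 1, 2 and 3 and 19.8, 57.0 and 29.7% in Db + Ato10 replicates 1, 2 and 3. In Db + Ato10 replicate 2 it was the larger of both forms and in the other 5 libraries the smaller, so the groups overlapped (exact p = 0.7, adjusted p = 0.8 over 2 shares). Counts of transcripts of 1 gene are estimated from shared reads, and that uncertainty is not in these errors.

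Cldn10 has 6 deposited transcripts that start at either of a pair of first exons on chromosome 14 of GRCm38, 4 at the upstream one (its earliest start at 118787908) and 2 at the downstream one (118854732). As background, the forms with different first exons, claudin-10a and claudin-10b, make pores for anions and for sodium, and the sodium pore is the one of the thick ascending limb. Which first exon belongs to which form was not assigned here, so neither sum below is given as that of the limb. Transcripts with the upstream first exon summed to 84.0, 95.9 and 109.7 CPM in Db replicates 1, 2 and 3 and 28.6, 64.1 and 58.1 CPM in Db + Ato10 replicates 1, 2 and 3. Those with the downstream first exon summed to 101, 94.2 and 136 CPM in Db replicates 1, 2 and 3 and 80.5, 23.7 and 67.2 CPM in Db + Ato10 replicates 1, 2 and 3. Every treated library was below every saline one for both sums. The upstream share was 45.5, 50.4 and 44.6% in Db replicates 1, 2 and 3 and 26.2, 73.0 and 46.4% in Db + Ato10 replicates 1, 2 and 3. Its mean hardly differed between groups (46.9 ± 3.14% and 48.5 ± 23.5%, SD, n = 3 each; exact p = 0.8, adjusted p = 0.8 over 2 shares), but the treated libraries were far apart, with replicate 1 the lowest and replicate 2 the highest of the 6.

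**Figure D2:**
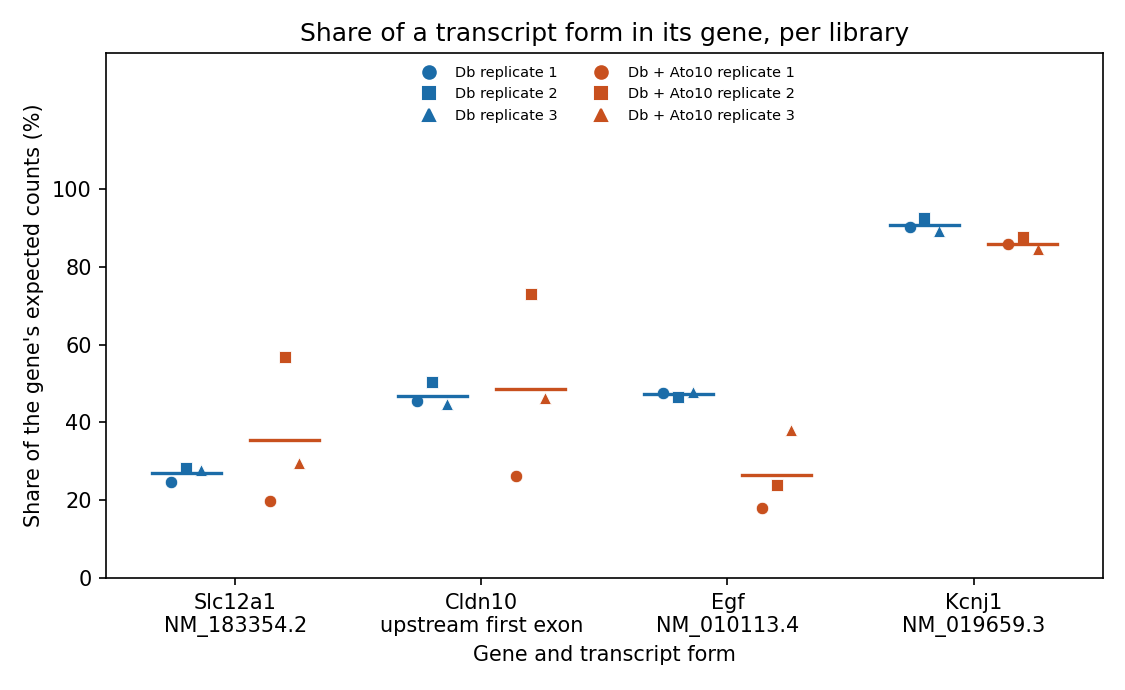
Share (percent) of 1 transcript form in the expected counts of its gene, for Slc12a1, Cldn10, Egf and Kcnj1, with 1 point per library and a bar at the group mean. The treated libraries spread to both sides of the saline ones for Slc12a1 and Cldn10 and lie below them for Egf and Kcnj1, as was the case for 7.92% of tested transcripts in genes with more than 1 tested.

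Across the 6 libraries the genes outside the 9 whose log2 CPM was most like that of Slc12a1 were Tbc1d24 (r = 0.995), Slc4a1 (r = 0.994), Rab11fip4 (r = 0.993), Slc25a35 (r = 0.993) and Tspyl4 (r = 0.992), by Pearson correlation as a description. The points fall into both groups, so such an r largely restates the group difference, and 109 genes had an r above 0.95. Within the 9, Kcnj1 (r = 0.994) and Cldn10 (r = 0.978) followed Slc12a1 most closely, Umod less so (r = 0.706), and Cldn16 (r = 0.148) and Cldn19 (r = 0.0720) hardly at all.

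Further genes of salt transport in the limb were also read, and these are shared with other segments. Whether the genes described above are confined to the limb in these kidneys was not tested. Of 5 genes reported here, 5 were tested by edgeR and 0 passed both criteria, while 3 were lower and 0 higher at an unadjusted p under 0.05, beside 5.71% of all tested genes lower. Other genes of this list were left out after the results were known and are not reported here, so the count and the median log2 fold change of −0.86 hold for these 5 alone. DESeq2 called 1 of them lower, Kcnj10 (adjusted p = 0.00406), beside 1.29% of all tested genes. Kcnj16 measured 1069.6, 887 and 1042 CPM in Db replicates 1, 2 and 3 and 323, 565 and 694 CPM in Db + Ato10 replicates 1, 2 and 3, with no overlap between groups. It and Kcnj10 encode potassium channel subunits of the basolateral membrane, and Kcnj10 and Kcnj16 had log2 fold changes of −0.92 and −0.92, and Slc9a3, the apical sodium-proton exchanger, −0.86. Atp1b1 and Fxyd2 had −0.45 and −0.32, each with an unadjusted p above 0.05.

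Of 15 genes for kinases, receptors and other proteins that act on this transport, 14 were tested and Cldn14 was below the filter, at 0 to 1.26 CPM. At an unadjusted p under 0.05, 8 were lower and 0 higher, beside 5.71% of all tested genes lower, and 0 passed both criteria by edgeR (median log2 fold change −0.51). DESeq2 called 4 lower, Wnk1, Wnk4, Casr and Cnnm2 (adjusted p from 0.00158 to 0.0496), beside 1.29% of all tested genes. Wnk1 and Wnk4, kinases upstream of the cation-chloride cotransporters, had log2 fold changes of −1.05 and −0.76. Stk39, which encodes the kinase SPAK between them and NKCC2, had −0.41, and Oxsr1, its relative, 0.10. Casr, the calcium-sensing receptor, measured 108, 143 and 98.4 CPM in Db replicates 1, 2 and 3 and 74.0, 39.8 and 57.8 CPM in Db + Ato10 replicates 1, 2 and 3, again with no overlap (log2 fold change −1.02). The vasopressin receptor gene Avpr2 had −0.85. Maged2, which is needed for NKCC2 to reach the membrane before birth, had 0.34 with overlapping groups.

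Among 7 transcription factors and coactivators of the distal nephron, 3 were lower at an unadjusted p under 0.05, beside 5.71% of all tested genes, and 0 passed both criteria by edgeR (median log2 fold change −0.42). This list too was shortened after the results were known, so its count and median hold for these 7 alone. The shares of all tested genes are again context and make no test of the list. The lower ones were Esrrb (−1.17), Ppargc1a (−1.06) and Esrrg (−0.82), nuclear receptors and a coactivator that act on mitochondrial genes, of which DESeq2 called Ppargc1a and Esrrg lower (adjusted p = 0.0346 and 0.0476), beside 1.29% of all tested genes. The macula densa, a plaque of cells at the end of the limb, was read from 3 genes, all tested. At an unadjusted p under 0.05 by edgeR, 1 was lower and 1 higher, beside 5.71% of all tested genes lower and 11.2% higher. By edgeR 0 of them passed both criteria. Nos1 was low in both groups, with every treated library below every saline one (log2 fold change −1.05, adjusted p = 0.239 by edgeR and 0.0610 by DESeq2). Avpr1a overlapped (−0.43). Ptgs2 measured 1.91, 0.954 and 1.62 CPM in Db replicates 1, 2 and 3 and 37.6, 3.51 and 1.58 CPM in Db + Ato10 replicates 1, 2 and 3. Its higher treated mean came mostly from replicate 1, and the other treated libraries lay near the saline range. Db + Ato10 replicate 1 also had the highest immune and injured tubule sums of all libraries, given below, and a link was not tested. In bulk tissue these counts need not come from the macula densa. DESeq2 called Ptgs2 higher (adjusted p = 0.0317), as it did 5.17% of all tested genes, and edgeR did not (adjusted p = 0.268).

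**Figure D3:**
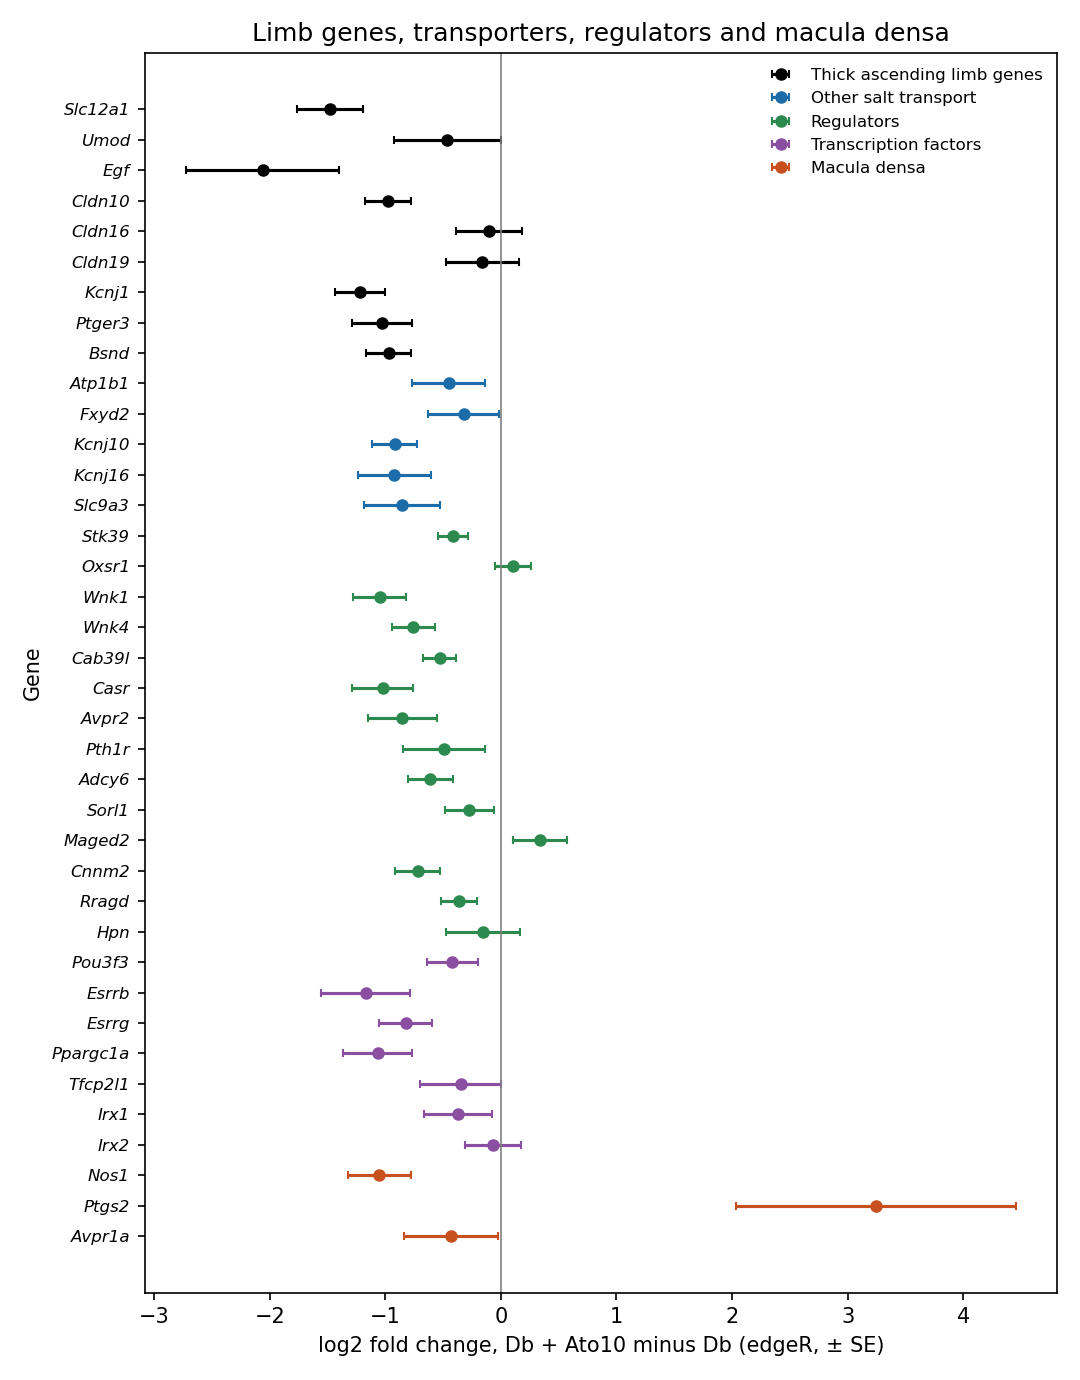
The log2 fold change (Db + Ato10 minus Db) of the 9 genes and of the tested genes for other salt transport, regulators, transcription factors and macula densa, with bars of 1 SE from edgeR, n = 3 libraries in each group. Most points shown lie left of 0, Oxsr1, Maged2 and Ptgs2 lie to its right, and no gene passed both criteria by edgeR. The salt transport and transcription factor lists are shown as shortened after the results were known.

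Markers of other cells moved with the same groups, and their part in the lower levels of the 9 genes was not tested. The most abundant gene of each marker list is named by its level per length (TPM), and the sums are in CPM. The 4 injured tubule markers summed to 12.0, 90.5 and 17.1 CPM in Db replicates 1, 2 and 3 and 5454, 1407 and 429 CPM in Db + Ato10 replicates 1, 2 and 3, with Lcn2 the most abundant by TPM. All 4 were higher at an unadjusted p under 0.05, beside 11.2% of all tested genes. Lcn2 made up most of each treated sum, and the median log2 level of the 4 relative to the Db mean was 5.67, 6.13 and 4.40 in Db + Ato10 replicates 1, 2 and 3, so the sum and the median did not put these libraries in the same order. The 6 immune markers summed to 87.8, 129.8 and 110.0 CPM in Db replicates 1, 2 and 3 and 3189.9, 686 and 153 CPM in Db + Ato10 replicates 1, 2 and 3, with Lyz2 the most abundant by TPM, 4 of 4 tested were higher, and Cd3e and Cd79a were below the filter. The 4 fibroblast markers summed to 49.3, 95.0 and 67.9 CPM in Db replicates 1, 2 and 3 and 1063, 416 and 147 CPM in Db + Ato10 replicates 1, 2 and 3, with Dcn the most abundant by TPM, and 4 of 4 were higher. Of 4 urothelial markers Krt5 was tested and higher, while Upk1b, Upk3a and Upk2 were below the filter, and the 4 summed to 2.07, 0.347 and 1.78 CPM in Db replicates 1, 2 and 3 and 84.6, 43.8 and 12.8 CPM in Db + Ato10 replicates 1, 2 and 3. Krt5, a keratin of basal epithelial cells in general, made up most of each treated sum, so this sum is not a measure of urothelium alone.

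Neighbouring nephron segments gave the following values beside those of the limb. Distal convoluted tubule markers summed to 3057, 3356 and 2173 CPM in Db replicates 1, 2 and 3 and 1579.7, 842 and 1490.5 CPM in Db + Ato10 replicates 1, 2 and 3, with Calb1 the most abundant by mean TPM, though not in every library, and 4 of 5 were lower at an unadjusted p under 0.05, beside 5.71% of all tested genes. For the principal cell 3 of 5 were lower (most abundant gene by TPM Aqp2) and for the intercalated cell 3 of 5 (most abundant gene by TPM Atp6v1g3). The medians of these lists were −1.20, −0.43 and −0.46 on the log2 scale, in that order. Proximal tubule markers summed to 9692, 7119 and 9145 CPM in Db replicates 1, 2 and 3 and 1045, 4195 and 8964 CPM in Db + Ato10 replicates 1, 2 and 3, with Slc34a1 the most abundant by TPM and 0 of 8 lower at that level, although all 8 had a fold change below 0 on the log2 scale (median −0.81) with libraries far apart. Thin limb and inner medulla markers summed to 207, 105 and 282 CPM in Db replicates 1, 2 and 3 and 289, 116 and 181 CPM in Db + Ato10 replicates 1, 2 and 3, with Akr1b3 the most abundant by TPM and overlapping groups. Podocyte sums ranged from 197 to 573 CPM over the 6 libraries (most abundant gene by TPM Podxl, 0 of 5 lower) and endothelial sums from 133 to 347 CPM (most abundant gene by TPM Emcn, 1 of 5 lower).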

How the data were processed

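RNA of 6 kidneys was sequenced on the BGISEQ-500 after oligo dT selection or rRNA depletion. The submitters' processing notes name HISAT, Bowtie2 2.2.5 and mm9 with no role, and the counting program is not given in the sources used here. The values the authors deposited were expected counts (estimated reads, not normalized), FPKM and TPM (both scaled to length and library size). Coordinates come from RefSeq (GRCm38.p6) and GENCODE M21 (GRCm38). Expected counts were rounded. Genes and transcripts with 10 or more counts in 3 or more libraries went into edgeR 4.0.16 in R 4.3.3 (TMM, quasi-likelihood F test, adjustment over all tested). For log2 CPM, 2 counts were added as a prior.

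Alternatives were DESeq2 1.42.0, limma 3.58.1 (voom, and trend on FPKM or TPM), upper-quartile scaling, other filters, the other quasi-likelihood setting, a replicate block and each library left out. DESeq2 with a library left out, and transcripts of genes other than Slc12a1 and Cldn10, were chosen after seeing the data. On simulated counts with several dispersion settings the unadjusted p-values were calibrated, but adjusted calls held more unchanged genes than the nominal rate, more so by DESeq2 than by edgeR. Named genes were the 9, those of the transport, regulator, transcription factor and macula densa lists, each other list's most abundant and untested genes, and the 5 most like Slc12a1. Some genes of the transport and transcription factor lists were left out of the lists, their counts and medians after the results were known, and are not reported here. The members and lists were chosen with earlier results of these data known. Plots used matplotlib 3.10.9 (Python 3.11.15).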

Additional observations from a re-analysis of the deposited data

How the results depend on the processing

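The number of the 9 genes that passed both criteria depended on the test: 0 by edgeR with TMM, 6 by DESeq2 and 0 under every other scaling, filter, unit and limma setting run. With single libraries left out it ran from 0 to 5 by edgeR, the 5 coming without Db + Ato10 replicate 3, and from 2 to 6 by DESeq2, fits chosen after seeing the data. DESeq2 called 6 without Db + Ato10 replicate 3, where 7.5% of all tested genes were called lower. It called 4 without Db replicate 1, 2 without Db replicate 3 and 5 without each of the others, where 0.258 to 0.887% of all tested genes were called lower. The cause was not tested. The number of transcripts of Slc12a1 and Cldn10 that passed was 2 by DESeq2 and 0 in all other fits. The median log2 fold change of the 9 ran from −1.08 to −0.94 over the settings. With single libraries left out it ran from −1.07 to −0.84 by edgeR. Direction reversed for Cldn16 without Db + Ato10 replicate 3 (0.14 by edgeR) and for Cldn19 without Db replicate 3 (0.19 by edgeR), and for no other gene of the 9. In the edgeR fits with single libraries left out, Cldn16 ran from −0.36 to 0.14 and Cldn19 from −0.43 to 0.19. Umod ran from −0.77 to −0.10 and Egf from −3.02 to −1.62 in the same fits. Of the 9, 6 to 7 had treated libraries all below the saline ones with single libraries left out, beside 14.7 to 24.9% of all tested genes over the same sets of libraries.

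With the replicate number as a replicate block, 0 of the 9 genes passed both criteria and the log2 fold change of Slc12a1 was −1.50 and that of Egf −2.47 (adjusted p = 0.364 for each by edgeR); the median was −0.98. The deviations of same-numbered libraries from their group means were correlated at −0.153, 0.0598 and 0.210, and nothing in the labels says that the numbers pair the mice. With 3 libraries in a group no exact test could reach 0.05, and estimated transcript counts carry an error that the deposited values do not give.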

Other observations

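The transcripts of the other members were compared after seeing the data, so their shares are given as a description with no test. Egf has 5 deposited transcripts. NM_010113.4 has 24 exons in GENCODE M21 (GRCm38, minus strand) and starts at the upstream first exon, while NM_001310737.1 has 19 and starts at a downstream one. The share of NM_010113.4 in the counts of Egf was 47.6, 46.6 and 47.9% in Db replicates 1, 2 and 3 and 17.9, 24.0 and 38.0% in Db + Ato10 replicates 1, 2 and 3. The share of NM_001310737.1 was 34.4, 38.8 and 36.4% in Db replicates 1, 2 and 3 and 68.5, 66.7 and 48.3% in Db + Ato10 replicates 1, 2 and 3. The saline libraries were nearly equal, and each treated library had less of the longer form and more of the shorter one than any saline library. Both forms were lower in treated kidneys in CPM (log2 fold changes −2.62 and −1.44). The share of another form, XM_006500990.3, was 14.1, 4.82 and 7.66% in Db replicates 1, 2 and 3. In Db + Ato10 replicates 1, 2 and 3 it was 0, 1.49 and 1.06%, lower in every treated library. Its saline shares were far apart, and its log2 fold change in CPM was −5.46 ± 1.52 SE.

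Kcnj1 also has 2 deposited transcripts with different first exons. The share of NM_019659.3, which starts upstream, was 90.3, 92.5 and 89.3% in Db replicates 1, 2 and 3 and 85.9, 87.6 and 84.5% in Db + Ato10 replicates 1, 2 and 3, lower in every treated library. Of the 19 tested transcripts of the 7 members with more than 1 tested, 3 had a share lower in every treated library and 3 a share higher in every one. Of 24340 tested transcripts in 7565 such genes of the whole table, 7.92% had a share lower in every treated library and 7.73% a share higher in every one. Shares within 1 gene depend on each other, so the transcripts of Egf and Kcnj1 are not separate cases.

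The remaining members with more than 1 transcript are Umod, Cldn19 and Ptger3, beside Slc12a1 and Cldn10. The share of NM_001278605.1 in Umod was 88.1, 86.5 and 87.3% in Db replicates 1, 2 and 3 and 86.0, 84.7 and 88.2% in Db + Ato10 replicates 1, 2 and 3, with overlapping groups. The share of NM_153105.7 in Cldn19 was 51.3, 68.0 and 66.6% in Db replicates 1, 2 and 3 and 61.6, 65.6 and 62.4% in Db + Ato10 replicates 1, 2 and 3, also overlapping. In Ptger3 the share of NM_011196.2 was 17.3, 18.2 and 15.6% in Db replicates 1, 2 and 3 and 23.8, 18.4 and 28.1% in Db + Ato10 replicates 1, 2 and 3, higher in every treated library, though by little in replicate 2, and that of the most abundant form, XM_011240037.1, was 82.3, 78.9 and 83.5% in Db replicates 1, 2 and 3 and 74.9, 81.6 and 69.7% in Db + Ato10 replicates 1, 2 and 3, with overlapping groups.

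A separate description, and not a background for these shares, is the median over 6825 genes of the share of expected counts assigned to a gene's longest transcript: 8.86, 8.85 and 8.81% in Db replicates 1, 2 and 3 and 9.89, 8.33 and 9.21% in Db + Ato10 replicates 1, 2 and 3, with overlapping groups. Whether this share follows RNA quality was not tested.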
